A study of Mus musculus with 6 samples.

Results

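The 10 genes described here encode parts of the T cell receptor complex, its coreceptors and proximal kinase, and a pair of enzymes of receptor gene assembly: Cd3d, Cd3e, Cd3g, Cd247, Cd4, Cd8a, Cd8b1, Lck, Rag1 and Dntt. They were taken by gene symbol from the 29322 genes of the authors' deposited comparison, and 10 of 10 had an entry. They were chosen by symbol with the fold changes of that comparison known, that is, selected on the measured log2 fold change of Yeti over WT, so these fold changes are given as a description and were not tested here. The 6 bulk RNA-seq libraries came from lung mesenchymal cells of adult mice, 3 from Yeti+/- mice, whose Ifng, encoding interferon-gamma, carries a gain-of-function change, and 3 from wild-type (WT) mice. Mice of both groups were injected with tamoxifen, and the labels do not name the allele it acts on. The cells of both groups were sorted as negative for CD45, CD31, Epcam and the dead-cell dye DAPI, while the extraction protocol speaks of cultured cells. The labels do not say whether the libraries of a group came from separate mice, so the spread between them may be technical.

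A mature T cell recognises its target through a T cell receptor, a pair of variable chains that cannot signal by themselves and are held at the surface by the CD3 chains and the zeta chain. CD4 and CD8 bind the MHC molecule beside the receptor and bring the kinase Lck to it. T cells acquire this machinery in the thymus, where developing thymocytes cut and rejoin their receptor genes with the RAG recombinase, the beta chain before the alpha chain, and pass through a stage that carries CD4 and CD8 together. Rag1 and Dntt are switched off once a T cell matures.

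The deposited table gives for each gene a mean over the 6 libraries, a fold change and its standard error (SE), and no values per library. The whole reads in each library were recovered from these 3 numbers, since a single set of 6 whole numbers matched them for 9 of the 10 genes. For Cd4 there were 2 sets, of which the dispersion of the authors' fit singled out 1, and for Lck a second set appeared at a wider tolerance and was set aside on the same ground. The reads were divided by the recovered size factors, which ran between 0.946 and 1.0 in Yeti libraries and between 0.952 and 1.09 in WT libraries, and the result is called normalized reads below. The recovery gives the group of each library, from the direction of the authors' comparison, but not which numbered sample it is, so the libraries of each group are called a, b and c in order of falling size factor, and equal letters in the 2 groups do not pair libraries. The means in the authors' deposited table summed to 26646632 over all genes, the average depth of a library in normalized reads.

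One library stood apart from the others for these genes. WT library c held the highest level of 10 of 10 genes, whereas it was the highest of the 6 libraries for 16.0% of 10155 genes with recovered reads. In 10 of 10 genes its level was at least 2 times that of every other library, and it exceeded the mean of the other WT libraries by factors of 2.71 to 32.1. The normalized reads of the 10 genes summed to 946, 1184 and 1877 in Yeti libraries a, b and c, against 1186, 1590 and 9108 in WT libraries a, b and c. The genes were chosen for lower values in Yeti, and the reads were recovered from those fold changes and their SE, so a high WT library goes with the choice of the genes and nothing is read from the count of 10. The fold changes below are given with WT library c and without it.

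**Figure D1:**
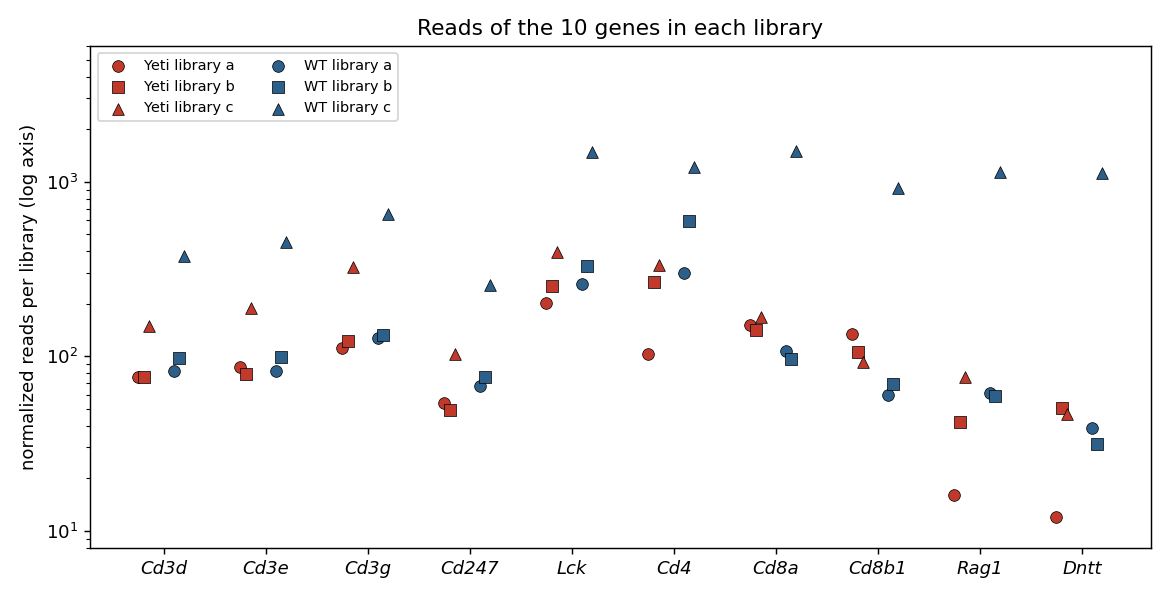
Normalized reads of the 10 genes in each of the 6 libraries on a log axis, Yeti libraries in red and WT libraries in blue, one point per library. The blue triangle, WT library c, is the highest point of every gene, between 255 for Cd247 and 1506 for Cd8a, and all other points of a gene lie lower.

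The promoters of 4 of the genes are printed here because the results turn on these genes: Rag1 and Dntt lay the most in the one library, Cd8a is the coreceptor with the steepest difference between libraries, and Cd3e is the receptor chain against which the others are set further on. Each window holds 250 bases before and 50 bases after a transcription start, from RefSeq on GRCm38.p6, written 5′ to 3′ on the gene's own strand. Rag1 is at chr2:101649483-101649782 (minus strand), Dntt at chr19:41029025-41029324 (plus strand), Cd8a at chr6:71373177-71373476 (plus strand) and Cd3e at chr9:45009562-45009861 (minus strand). Capitals mark the E-box, CANNTG with N for any base, the core bound by E proteins, which are known regulators of thymocyte genes. The pattern reads the same on both strands, and overlapping matches were counted.
Rag1: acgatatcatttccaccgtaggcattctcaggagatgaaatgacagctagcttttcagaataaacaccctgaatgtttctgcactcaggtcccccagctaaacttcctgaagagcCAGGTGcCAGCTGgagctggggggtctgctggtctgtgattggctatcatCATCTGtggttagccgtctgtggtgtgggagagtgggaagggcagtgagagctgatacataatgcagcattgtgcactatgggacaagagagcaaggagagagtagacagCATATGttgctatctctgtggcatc
Dntt: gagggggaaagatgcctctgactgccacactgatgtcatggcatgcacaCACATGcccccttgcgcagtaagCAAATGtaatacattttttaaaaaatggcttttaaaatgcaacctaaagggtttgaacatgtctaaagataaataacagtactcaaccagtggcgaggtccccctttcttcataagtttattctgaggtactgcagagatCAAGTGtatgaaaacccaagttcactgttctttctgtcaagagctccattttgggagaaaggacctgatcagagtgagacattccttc
Cd8a: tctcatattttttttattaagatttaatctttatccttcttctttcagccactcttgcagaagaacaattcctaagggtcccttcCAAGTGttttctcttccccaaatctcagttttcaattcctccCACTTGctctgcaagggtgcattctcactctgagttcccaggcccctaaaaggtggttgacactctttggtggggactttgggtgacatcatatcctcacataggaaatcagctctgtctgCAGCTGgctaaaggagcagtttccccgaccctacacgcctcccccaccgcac
Cd3e: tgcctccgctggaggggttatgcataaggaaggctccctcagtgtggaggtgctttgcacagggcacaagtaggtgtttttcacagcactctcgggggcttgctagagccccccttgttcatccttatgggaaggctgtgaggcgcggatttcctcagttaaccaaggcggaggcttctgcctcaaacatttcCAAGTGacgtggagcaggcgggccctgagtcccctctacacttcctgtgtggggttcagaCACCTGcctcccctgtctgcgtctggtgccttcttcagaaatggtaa
The Rag1 window holds 4 E-boxes, the Dntt and Cd8a windows 3 each and the Cd3e window 2. RefSeq windows were found for 8 of the 10 genes, in 9 entries because Lck has 2 starts, and each holds between 1 and 4. Of 32851 mouse promoter windows of this length 72.3% hold at least 1, with a median of 1, so a match describes the letters and says nothing of binding.

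Rag1 and Dntt, the genes of receptor gene assembly, had the largest fold changes of the 10 and most of their reads in a single WT library. Rag1 encodes the cutting subunit of the recombinase (chromosome 2, 101638282 to 101649501, GRCm38, minus strand). It had 16.0, 42.2 and 76.1 normalized reads in Yeti libraries a, b and c, against 61.6, 58.9 and 1136 in WT libraries a, b and c. Without WT library c, Rag1 ran from 16.0 to 76.1 in Yeti and from 58.9 to 61.6 in WT, so the WT values lay inside the Yeti range. Rag1 averaged 44.8 ± 30.2 normalized reads in Yeti libraries and 419 ± 621 in WT libraries (SD, n = 3 each).

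Dntt encodes terminal deoxynucleotidyl transferase, which adds bases at the joints of rearranged receptor genes (chromosome 19, 41029275 to 41059525, GRCm38, plus strand). It had 12, 50.2 and 46.5 normalized reads in Yeti libraries a, b and c, against 38.6, 31.3 and 1122 in WT libraries a, b and c. WT library c alone was high, and the remaining libraries of the 2 groups overlapped. Dntt averaged 36.2 ± 21.1 normalized reads in Yeti libraries and 397 ± 628 in WT libraries (SD, n = 3 each).

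In the authors' deposited table the log2 fold change of Yeti over WT was -3.23 ± 1.35 (SE) for Rag1 and -3.45 ± 1.51 for Dntt. No p-value stands beside either gene in the authors' deposited table. The log2 ratio of group means without WT library c was -0.43 for Rag1 and 0.05 for Dntt, on the scale of normalized reads. WT library c held 81.7% of all normalized reads of Rag1 and 86.3% of those of Dntt.

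The 4 signalling chains of the receptor complex were alike in their pattern over libraries, with 42.2 to 45.7% of their normalized reads in WT library c. Cd3e, Cd3d and Cd3g encode the epsilon, delta and gamma chains of CD3, and lie within 40056 bases of each other on chromosome 9 (GRCm38, from Cd3g at 44969572 through Cd3d to the end of Cd3e at 45009627), Cd3d on the plus strand and the others on the minus strand. The starts of Cd3g and Cd3d are 1355 bases apart on opposite strands, and whether the counting used strand is not given in the sources used here. Cd247 encodes the zeta chain, whose tails carry most of the signalling motifs (chromosome 1, 165788681 to 165877277, plus strand).

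Cd3e had 86.8, 79.3 and 188 normalized reads in Yeti libraries a, b and c, against 81.8, 98.8 and 451 in WT libraries a, b and c. Cd3d had 75.8, 76.3 and 149 normalized reads in the Yeti libraries, against 82.7, 97.8 and 373 in the WT libraries, in the same order. For both chains WT library c was highest and Yeti library c came next, and the groups overlapped. Cd3g had 112, 122 and 323 normalized reads in the Yeti libraries, against 127, 132 and 650 in the WT libraries. Cd247 had 53.9, 49.2 and 104 normalized reads in the Yeti libraries, against 67.1, 76.0 and 255 in the WT libraries. The second place of Yeti library c held for Cd3g and Cd247 too, and among the 3 Yeti libraries it was the highest for 8 of the 10 genes, Cd8b1 and Dntt being the exceptions.

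The deposited log2 fold changes of these chains were all within 2 SE of 0. They were -0.83 ± 0.67 (SE) for Cd3e, -0.88 ± 0.61 for Cd3d, -0.71 ± 0.69 for Cd3g and -0.95 ± 0.58 for Cd247 in the authors' deposited table. The adjusted p-values of the DESeq2 test in the authors' deposited table were 0.941, 0.840, 0.997 and 0.744 in that order. Without WT library c the log2 ratio of group means was 0.39 for Cd3e, 0.15 for Cd3d, 0.52 for Cd3g and -0.05 for Cd247, so the sign turned for the 3 CD3 chains. Per kilobase of exon, which allows levels of different genes to be set side by side, Cd3d stood at 1.78 to 2.16 times Cd3e in Yeti libraries and at 1.86 to 2.27 times in WT libraries.

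Cd8a and Cd8b1 encode the alpha and beta chains of the CD8 coreceptor and are neighbours on chromosome 6 (GRCm38, plus strand, Cd8b1 at 71322788 to 71337494 and Cd8a at 71373427 to 71379173), 35933 bases apart. Cd8a had 152, 142 and 168 normalized reads in Yeti libraries a, b and c, against 108, 95.9 and 1506 in WT libraries a, b and c. Cd8b1 had 134, 106 and 93.1 normalized reads in Yeti libraries a, b and c, against 59.8, 69.3 and 916 in WT libraries a, b and c. For both chains the 3 Yeti libraries stood above WT libraries a and b and far below WT library c.

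The averages of Cd8a were 154 ± 13.4 normalized reads in Yeti libraries and 570 ± 811 in WT libraries (SD, n = 3 each). Those of Cd8b1 were 111 ± 20.7 in Yeti libraries and 348 ± 492 in WT libraries (SD, n = 3 each). The log2 fold change was -1.89 ± 1.19 (SE) for Cd8a and -1.65 ± 1.18 for Cd8b1, with no p-value for either, in the authors' deposited table. Without WT library c the log2 ratio of group means was 0.60 for Cd8a and 0.78 for Cd8b1. These were the only 2 of the 10 genes whose groups did not overlap without that library, and 9.69% of all recovered genes had 3 Yeti libraries above WT libraries a and b and 11.6% had them below.

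Cd4 encodes the coreceptor of helper T cells, and is also made by some other leukocytes (chromosome 6, 124864692 to 124888221, GRCm38, minus strand). It had 103, 266 and 334 normalized reads in Yeti libraries a, b and c, against 301, 599 and 1218 in WT libraries a, b and c. Unlike the other 9 genes, Cd4 stayed lower in Yeti by more than a log2 ratio of 0.5 without WT library c, at -0.94, although Yeti library c overlapped WT library a. The log2 fold change was -1.59 ± 0.56 (SE), with p = 0.00475 (adjusted p = 0.123), in the authors' deposited DESeq2 table. This was the smallest p of the 6 genes that have one.

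Lck encodes the kinase that phosphorylates the CD3 and zeta chains (chromosome 4, 129548344 to 129573641, GRCm38, minus strand). It had 202, 251 and 396 normalized reads in Yeti libraries a, b and c, against 259, 331 and 1481 in WT libraries a, b and c. WT library c alone was far from the rest, and the groups overlapped. The log2 fold change was -1.29 ± 0.63 (SE), with p = 0.0406 (adjusted p = 0.478), in the authors' deposited DESeq2 table, and the log2 ratio without WT library c was -0.06.

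Taken as a list, 0 of the 10 genes had an adjusted p under 0.05 in the authors' deposited table, where 2.84% of 20212 genes with an adjusted p did, 0.994% of them as lower in Yeti. At an unadjusted p under 0.05 the count was 2, Cd4 and Lck, where 2.94% of genes with a p were lower in Yeti, and 4 of the 10 genes have no p. The deposited log2 fold change was below 0 for 10 of 10 genes and at or below -1 for 6, in the authors' deposited table, where 50.2% and 3.57% of genes with an adjusted p were. Since the genes were chosen with these signs known, nothing is read from that count. The median of the 10 log2 fold changes was -1.44, beside -0.001 for all genes with an adjusted p. In 10 of 10 genes the Yeti and WT libraries overlapped, while 7.79% of recovered genes had every Yeti library below every WT library. Without WT library c, 4 of the 10 log2 ratios were below 0 and 6 above, with a median of 0.10. In sorted bulk samples such as these, fewer cells of a type and less RNA per cell cannot be told apart.

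**Figure D2:**
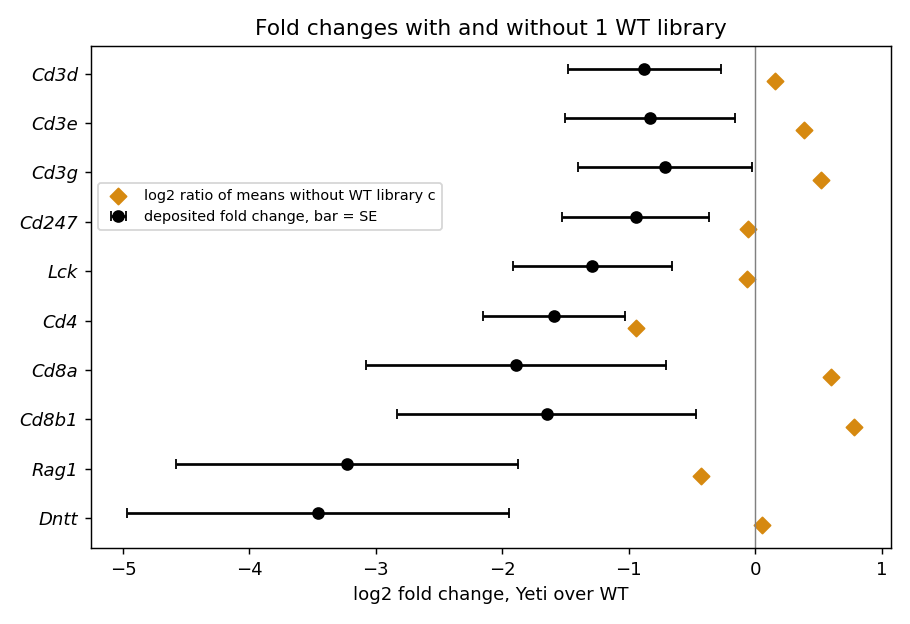
Log2 fold changes of Yeti over WT for the 10 genes, with black points and bars for the deposited value and its SE, and orange diamonds for the log2 ratio of group means without WT library c. The black points lie between -3.45 and -0.71, and the diamonds between -0.94 and 0.78.

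The 4 genes with no p-value are exceptional in the table. Only 14 of 29322 genes, 0.0477%, lack one in the authors' deposited table, and the tool's default leaves it out where a single library is extreme for its group by Cook's distance. Reads were recovered for 13 of the 14, and Cook's distance computed from those reads flagged 13 of 13, while it flagged none of 10142 other recovered genes. A gene was flagged if this distance passed the default limit of 18, unless 3 or more libraries held more reads than the extreme one. The distance was 29.3 for Dntt, 25.9 for Rag1, 24.2 for Cd8a and 23.2 for Cd8b1, reached in WT library c each time, and 11.4 for Lck and 0.240 for Cd4. Of the 13 genes 8 were highest in WT library c, 3 in Yeti library c and 2 in Yeti library b.

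Levels of the 10 genes can be ordered per kilobase of exon, as normalized reads per kilobase averaged over the 3 libraries of a group. In Yeti libraries the order was Lck (96.5), Cd8b1 (74.9), Cd4 (58.1), Cd3g (56.7), Cd3d (55.3), Cd8a (42.3), Cd3e (29.0), Dntt (15.8), Cd247 (12.9) and Rag1 (6.77). In WT libraries it was Lck (236), Cd8b1 (235), Cd4 (175), Dntt (173), Cd8a (157), Cd3d (102), Cd3g (92.7), Rag1 (63.4), Cd3e (51.6) and Cd247 (24.9). The SD was 8.72 to 67.4% of the mean in Yeti libraries and 66.3 to 158% in WT libraries. Neighbours in either order differed by less than the larger of their SDs, except Cd247 and Rag1 in Yeti, whose libraries still overlapped. Dntt thus held the eighth place in Yeti libraries and the fourth in WT libraries, by means that include WT library c. Without that library each WT level was lower by more than 1.5 times and the order was Cd4 (112), Lck (101), Cd3d (49.7), Cd8b1 (43.5), Cd3g (39.6), Cd8a (28.0), Cd3e (22.1), Dntt (15.3), Cd247 (13.4) and Rag1 (9.12), with Dntt in the eighth place in WT libraries as well.

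The proportions of the genes to each other differed in WT library c as well. Set against Cd3e per kilobase of exon, Rag1 stood at 0.114, 0.328 and 0.250 in Yeti libraries a, b and c, and at 0.465, 0.368 and 1.56 in WT libraries a, b and c. Dntt stood at 0.246, 1.13 and 0.440 times Cd3e per kilobase in the Yeti libraries and at 0.840, 0.565 and 4.43 times in the WT libraries. Cd8a stood at 1.96, 2.0 and 1.0 times Cd3e per kilobase in the Yeti libraries and at 1.47, 1.09 and 3.75 times in the WT libraries. WT library c thus held the highest ratio of each of these 3 genes to Cd3e. Cd4 stood at 1.20, 3.4 and 1.80 times Cd3e per kilobase in the Yeti libraries and at 3.72, 6.14 and 2.73 in the WT libraries. That ratio was not highest in WT library c. The ratio of Lck to Cd3e per kilobase lay within the range of the other libraries there, at 3.23, 4.41 and 2.93 in the Yeti libraries and 4.41, 4.66 and 4.58 in the WT libraries. Yeti library c, second in the CD3 chains, had 0.250 for Rag1 and 0.440 for Dntt, within the range of the libraries other than WT library c.

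Other genes of thymocytes showed the same library. Of 14 recovered genes in a list of thymocyte genes, 12 were highest in WT library c, and the median share of their normalized reads there was 52.6%, beside 16.7% over all recovered genes. Rag2, the partner of Rag1 in the recombinase, had 0, 1 and 3 reads in Yeti libraries a, b and c, against 3, 2 and 35 in WT libraries a, b and c. Ptcra, the stand-in alpha chain of the pre-receptor, had 1, 4 and 2 reads in the Yeti libraries, against 3, 1 and 25 in the WT libraries. Themis, a signalling protein of positive selection, had 17, 20 and 43 reads in the Yeti libraries, against 34, 26 and 292 in the WT libraries. These 3 genes shared the pattern of Rag1 and Dntt, high in WT library c and with overlapping groups in the other 5 libraries. Ccr9, a chemokine receptor of thymocytes and gut T cells, had 36, 88 and 196 reads in the Yeti libraries, against 92, 140 and 688 in the WT libraries, so that Yeti library c also stood above the rest. Of 19 thymocyte genes tested in the authors' deposited table, 0 passed the adjusted p threshold of 0.05 while the median log2 fold change of all 21 with an entry, the genes without a p included, was -1.03. Over the 14 recovered genes the median log2 ratio of group means was -1.32 with WT library c and -0.03 without it, where 8 of the 14 ratios were below 0. Tox, Lef1 and Dgkeos had every Yeti library below every WT library, as 7.79% of all recovered genes did. Their log2 ratios without WT library c were -0.96, -0.66 and -0.86. Cd1d1 and Gata3 were highest in Yeti library c.

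The constant regions of the receptor chains differed in which library was highest. Trbc1 and Trbc2, the beta constant regions, are near-identical, so that reads may be split between them, and held 57.6 and 55.3% of their normalized reads in WT library c. Trac, the alpha constant region, had 133, 132 and 226 normalized reads in Yeti libraries a, b and c, against 108, 131 and 347 in WT libraries a, b and c, with 32.2% in WT library c. Per kilobase, Trac stood at 0.724, 0.693 and 0.657 times Trbc2 in the Yeti libraries and at 0.551, 0.580 and 0.246 times in the WT libraries, lowest in WT library c. Trdc, the delta constant region, was highest in Yeti library c, with 12, 17.1 and 136 normalized reads in the Yeti libraries, against 21.1, 26.6 and 84.0 in the WT libraries. The 3 gamma constant regions were split: Tcrg-C1 had 207 normalized reads in Yeti library c and 89.3 in WT library c, whereas Tcrg-C2 had 110.0 and 118 and Tcrg-C4 48.6 and 58.8 in the same libraries. Of 6 genes of that list tested in the authors' deposited table, 0 passed the adjusted p, and the median log2 fold change of all 7 with an entry, Tcrg-C1 without a p included, was -0.25. Without WT library c the median log2 ratio of group means of these 7 was 0.46. WT library c was the highest for 5 of the 7.

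Genes of receptor signalling were mostly highest in WT library c too, and genes of mature T cells were not. Of 17 recovered signalling genes 13 were highest in WT library c, with a median share of 30.7%, and 1 of 20 tested genes passed the adjusted p in the authors' deposited table, as lower in Yeti, where 0.994% of all genes did. That gene was Cd28, the costimulatory receptor, with 154, 182 and 246 normalized reads in the Yeti libraries, against 410, 680 and 715 in the WT libraries. Here the groups did not overlap, and the log2 fold change in the authors' deposited table was -1.63 ± 0.30 (SE, adjusted p = 1.1e-05). None of 13 recovered mature T cell genes was highest in WT library c, and their median share there was 11.4%. Most of them were highest in Yeti library c. Their normalized reads summed to 983, 1479 and 2998 in Yeti libraries a, b and c, against 996, 1434 and 1002 in WT libraries a, b and c. Ccl5, a chemokine of effector T cells, had 436, 620 and 625 normalized reads in the Yeti libraries, against 179, 215 and 167 in the WT libraries, with a log2 fold change of 1.58 ± 0.22 (SE, adjusted p = 3.51e-10) in the authors' deposited table. In that list 2 of 20 tested genes passed as higher in Yeti by the authors' deposited table, Ccl5 and Tbx21, where 1.85% of all genes did, and 1 as lower, Ctla4, where 0.994% did.

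**Figure D3:**
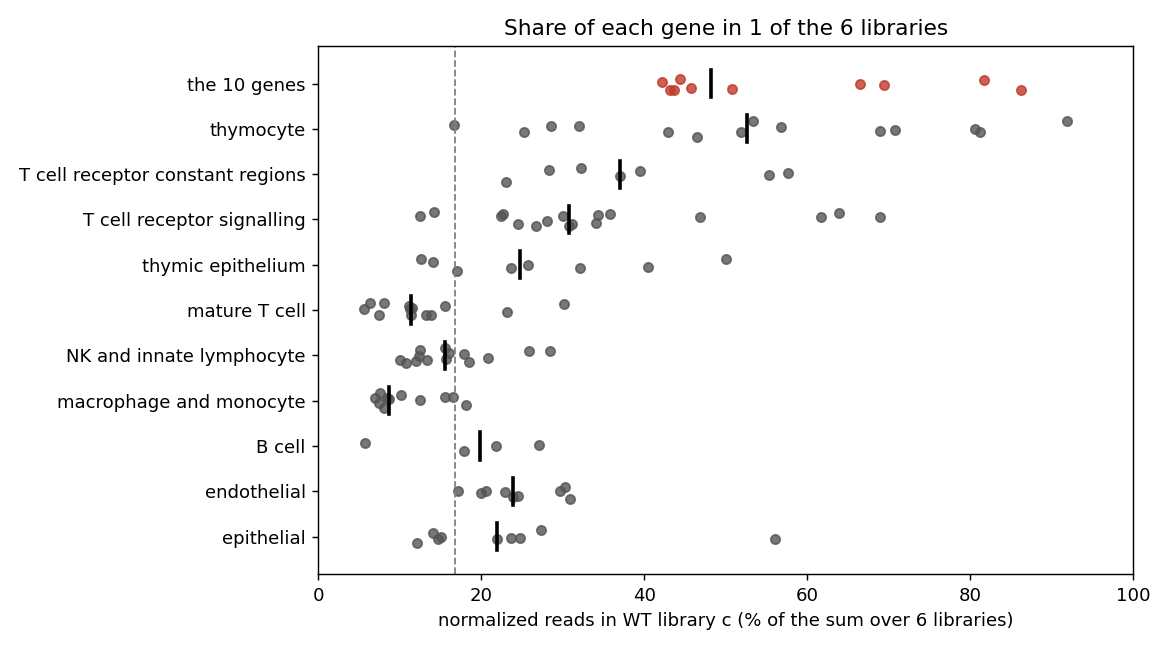
Share of each gene's normalized reads that lies in WT library c, in percent, for recovered genes with a mean of at least 5, by list. Points are genes, black bars list medians, and the dashed line the median of all recovered genes (16.7%). The 10 genes lie between 42.2 and 86.3%, while the mature T cell list has a median of 11.4%.

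Ranked by the share of normalized reads in WT library c over the 6 libraries, 4 of the 10 genes were among the first 10 of 6196 recovered genes with a mean of at least 20. This ranking was chosen after the values were seen, and genes with a mean above 300 entered it only from the lists. The first was Arpp21 with 91.9%, at 5, 6 and 12 reads in the Yeti libraries, against 17, 9 and 519 in the WT libraries. Dntt, Rag1, Cd8a and Cd8b1 followed at ranks 3, 4, 5 and 7, with Tdrd5, Themis, Bpifb1, Ighv5-9 and Trat1 between and after them. Of the 6196 genes 0.549% had at least 50% of their normalized reads in WT library c, where 5 of the 10 genes did, and 0.387% had as much in Yeti library c.

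Genes of other cell types are given beside these values, and their part in the result was not tested. Of 11 recovered genes in a list of thymic epithelium 6 were highest in WT library c, with a median share of 25.7%. The 11 include Foxn1, Krt5 and Fezf2, with means of 0.341, 1.51 and 0.317, whereas the share over all recovered genes took means from 5. Foxn1 and Krt5 are among the 6, Foxn1 with 1 read in WT library c and 1 in Yeti library a. The summed level of the 11 was 888 to 987 normalized reads in Yeti libraries and 851 to 1002 in WT libraries. Krt8, which is also in the epithelial list, gave 231 to 488 of these normalized reads per library, and Ly75 gave 201 to 400. Psmb11, the proteasome subunit of thymic cortex epithelium, had 4, 3 and 4 reads in the Yeti libraries, against 4, 2 and 16 in the WT libraries, while Foxn1, its defining transcription factor, had 2 reads in all. In the same list Prss16 had 11, 49 and 37 reads in the Yeti libraries, against 44, 84 and 142 in the WT libraries. Aire was highest in Yeti library c, with 15, 39 and 57 reads in the Yeti libraries, against 12, 19 and 28 in the WT libraries. The airway gene Scgb3a2, named in the epithelial list, had 115, 46 and 116 reads in the Yeti libraries, against 260, 77 and 722 in the WT libraries. Of 9 recovered genes of that list, which holds mostly genes of alveolar and of epithelial cells in general, 3 were highest in WT library c, with a median share of 21.9% and a summed level of 1784 to 2649 normalized reads in Yeti libraries and 2377 to 3447 in WT libraries. Genes of airway secretory cells and mucus stood high in WT library c together with the 10 genes. Besides Scgb3a2 they were Bpifb1, a secreted airway protein, Scgb3a1, a secretoglobin, Muc5b, a mucin, Fcgbp, a mucus protein, Clca1, made by goblet cells, and Reg3g, an antimicrobial lectin, picked from the first 25 genes of the ranking by share in WT library c after their values were seen. Their shares in WT library c ran from 55.9% for Muc5b to 66.1% for Bpifb1. Bpifb1 had 37, 23 and 49 reads in the Yeti libraries, against 190, 54 and 627 in the WT libraries, and Muc5b had 27, 35 and 53 reads in the Yeti libraries, against 121, 81 and 370 in the WT libraries. For both genes WT library a came next after WT library c. The immunoglobulin variable genes Ighv5-9, Ighv5-12 and Igkv12-89 were among the same 25, with 65.5, 63.8 and 59.8% of their normalized reads in WT library c.

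For 14 recovered natural killer and innate lymphocyte genes the median share in WT library c was 15.6%, for 4 B cell genes 19.8%, for 11 macrophage and monocyte genes 8.64% and for 9 endothelial genes 23.9%. The authors' deposited table has 2 of 15 innate lymphocyte, 1 of 14 B cell, 4 of 8 plasma cell, 8 of 16 endothelial and none of 17 macrophage, 12 epithelial or 16 mesenchymal genes tested as lower in Yeti at an adjusted p under 0.05, where 0.994% of all genes were, and none as higher. The smallest p of these lists belonged to Klra8, a natural killer receptor, Ebf1, a B cell transcription factor, Tnfrsf17, a plasma cell receptor, and Mmrn1, a gene of lymphatic endothelium. Their log2 fold changes were -4.15 ± 0.99, -0.62 ± 0.19, -2.54 ± 0.53 and -2.91 ± 0.26 (SE) in that order, in the authors' deposited table. Col3a1, a fibroblast collagen, had a mean of 151400 normalized reads, and Ptprc, the gene of the sorted-out CD45, one of 4871, in the authors' deposited table. Ifng itself had 24.9, 27.1 and 21.2 normalized reads in Yeti libraries a, b and c, against 6.44, 24.7 and 13.7 in WT libraries a, b and c, so the groups overlapped. Its log2 fold change was 0.71 ± 0.55 (SE, adjusted p = 0.918) in the authors' deposited table.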

How the data were processed

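RNA was measured in 3 Yeti+/- and 3 WT libraries, grouped by their titles. Per the submitters' processing notes, FastQC, STAR and DESeq were used with GRCm38 (mm10), versions unstated. How reads were counted, with which annotation and whether by strand, is not given in the sources used here. From the authors came 1 comparison table, deposited with the series, whose mean is a signal, reads divided by size factors and averaged over libraries, as its column name and its values show. Deposited beside it are the authors' log2 fold change (Yeti over WT by the table's name), its SE, the Wald statistic (a score), the p-value and the adjusted p-value, from DESeq2 by their column names.

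Size factors were read from the 21 lowest distinct means, each the mean of 2 reads, and refined on 2077 low means, each matched by 1 combination of whole reads. For the lists' genes up to a mean of 600, and for all genes with a mean between 5 and 300, all whole-number combinations giving the deposited mean were refitted with a re-implementation of the 2-group fit of DESeq2, the tool the authors used. A combination was kept if it gave the deposited fold change within 8e-10 at the deposited SE. Where several were left, the one used had a dispersion that followed the tool's shrinkage rule, fitted on 6085 genes with a median residual of 0.000143, or one left unshrunken at the gene's own estimate, each within 0.1. Of the members, 6 followed the rule, while Cd8a, Cd8b1, Rag1 and Dntt did not and lay near their own estimates, Rag1 farthest, with a slope of 0.0536 where 0 is exact. These 4 had a single combination, so that this criterion chose none of their reads. This gave reads for 10155 of 10171 genes, for 10060 of them from a single combination. The procedure was also run on simulated data with means of 20 to 500, whose fold changes and SE came from the same re-implemented fit. The true reads were always among the matches, which that design fixes in advance. They were not the only match for some genes of high mean. The simulation therefore shows only that other reads can match too. It cannot show that the re-implementation equals the tool the authors used. Intervals of counting were not computed. No test of any kind was run on the recovered reads.

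The members and the 12 other lists were chosen with earlier results of these data known. The rule for naming genes allowed the 10 members, in each other list the gene with the smallest p and the one with the highest mean, Ifng, and any gene of the constant region and thymocyte lists. The members and Ifng are all named, but of the genes picked by p or mean only some are, which is a choice made with their values known. Others (Psmb11, Foxn1, Krt5, Fezf2, Ly75, Prss16, Aire, Krt8, Tbx21, Ctla4, the airway genes and the genes of the ranking) lie outside the rule and were chosen after their values were seen. The recovery of reads was foreseen for the lowest genes from the mean alone. Its extension to all members and the setting aside of single libraries were chosen after the data were seen. So were its settings: the tolerance on the fold change was first 1.5e-09 and was tightened once genes with 2 matching combinations had been seen, the tolerance on the dispersion was first 0.05 and was widened after the value of Rag1 was seen, and the upper mean for all genes was raised to 300 after first results. Coordinates and exon lengths are from GENCODE M21 on GRCm38, promoters from RefSeq. Python 3.11.15, numpy 2.4.6, pandas 2.3.3, scipy 1.17.1 and numba 0.67.0 were used.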

Additional observations from a re-analysis of the deposited data

How the results depend on the processing

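The count of genes called was 0 with an adjusted p under 0.05, with a threshold of 0.1, with Benjamini-Hochberg adjustment over all genes with a p and with a further 2-fold limit, and it was 2 at an unadjusted p under 0.05. The median log2 fold change stayed between -1.59 and -0.91 under the other planned choices of genes, weights and centring. With 1 library left out at a time, values chosen after the data were seen and given with no test, it ran from -1.82 to 0.10, turning only without WT library c. Over the same 6 omissions the log2 ratio ran from -1.28 to 0.15 for Cd3d, from -1.34 to 0.39 for Cd3e, from -1.38 to 0.52 for Cd3g, from -2.39 to 0.60 for Cd8a, from -2.15 to 0.78 for Cd8b1 and from -4.00 to 0.051 for Dntt, each turning only without WT library c. Cd247, Cd4, Lck and Rag1 stayed below 0 in each omission. Per kilobase of the longest transcript in place of the exon union, the median Yeti level was 55.6 in place of 48.8 normalized reads. The reads of 2 genes depend on how matches were chosen. For Cd4 a second combination gave the same deposited values, with 332, 145 and 214 reads in Yeti and 1255, 946 and 62 in WT, and was set aside because its dispersion missed the shrinkage rule by 4.27 against 0.000179; it would put the highest level in WT library a and 2.31% of the reads in WT library c. For Lck, at a tolerance of 1.5e-09, a second gave 379, 170 and 283 reads in Yeti and 260, 1013 and 828 in WT, missing the rule by 1.47 against 0.00118; it would put the highest level in WT library b. The tightened tolerance left this set out, and it lay at a slope of 0.16, outside the 0.1 allowed. With the first dispersion tolerance of 0.05, 0 of the 95 genes settled among several combinations would have lost their choice. No paired analysis was possible because the recovered libraries cannot be tied to the replicate numbers of the labels.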
